A study of Mus musculus with 2 samples.

Results

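Mir139 is the microRNA gene with the most reads in these libraries of mouse cerebral cortex, counting only reads that mapped to 1 place. It was chosen by its sense counts, as the gene with the highest mean level in CPM (sense-strand counts scaled to a library total of 1000000), so its level and its rank are descriptions and were not tested. It is 1 gene of the 2202 microRNA genes listed in the deposited tables, of which 304 reached 10 CPM in both mice and are called detected here. The libraries came from short RNA of the left cerebral cortex of 2 female mice of the hybrid strain B6CASTF1/J at 36 days of age. The labels number the animals as biological replicates 1 and 2 of 1 group, under a shared donor code, and give no treatment, genotype change or other tissue. No comparison of conditions follows from this design, and what can be described is the level of Mir139, its place among the other genes and how far the mice differed.

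A microRNA is cut from a hairpin transcript, and either arm of the hairpin can be loaded into an Argonaute protein. The loaded strand pairs mainly through its seed, bases 2 to 8, with matching sites in messenger RNAs, most often in their 3′ untranslated regions, and lowers the output of those messengers. Mir139 lies within Pde2a, which encodes a phosphodiesterase that breaks down cAMP and cGMP, is stimulated by cGMP and is strongly expressed in forebrain neurons. MicroRNAs in introns are commonly made from the transcript of their host gene, and miR-139-5p is otherwise best known as a microRNA reduced in many cancers.

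The hairpin and both arms are shown because every read counted for Mir139 fell in this short stretch, and because the tables do not say from which arm it came. In the hairpin the 5p and 3p arms are in capitals; in the single arms, and in the 2 let-7 microRNAs given for comparison, the capitals mark the seed. The sequences are those of RefSeq on GRCm38.p6, and the RefSeq hairpin is identical to the Mir139 transcript of GENCODE M21.
Mir139 hairpin: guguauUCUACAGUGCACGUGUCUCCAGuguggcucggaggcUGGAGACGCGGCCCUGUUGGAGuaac
miR-139-5p: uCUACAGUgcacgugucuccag
miR-139-3p: uGGAGACGcggcccuguuggag
let-7g-5p: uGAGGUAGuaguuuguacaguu
let-7b-5p: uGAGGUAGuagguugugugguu

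The Mir139 hairpin of 68 bases stands at chr7:101475376-101475443 on the plus strand (GRCm38, which is mm10). The 5p arm covers bases 7 to 28 of it and the 3p arm bases 43 to 64, each of 22 bases, with 14 bases between them. The predicted minimum free energy of the hairpin was −35.6 kcal/mol with 25 base pairs. Per base this was −0.524 kcal/mol, against a median of −0.437 kcal/mol over the 304 detected hairpins, 47 of which were more stable per base. Its GC content was 58.8%, against a median of 50.9%, and 61 detected hairpins had a higher one.

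Neither seed was shared. Among the 1738 mature microRNAs of the RefSeq table, the seed of miR-139-5p belonged to 1 gene and that of miR-139-3p also to 1 gene, Mir139 in both cases. Each arm was found in 1 of the 141767 M21 transcripts, the Mir139 hairpin itself, and its reverse complement in none. No stretch of 20 bases in the hairpin recurred in another annotated hairpin, whereas 71 of the 304 detected hairpins (23.4%) had such a stretch. None of the 10 genes with the highest mean level had such a stretch. This bears on the counts, because reads that mapped to several places were given to no gene. Those reads numbered 2448356 in mouse 1 and 2327665 in mouse 2, which was 9.61 and 13.5 times the Mir139 count, so a microRNA with several copies could hold more reads than Mir139 without showing it in these tables.

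Mir139 had 254796 of 1930234 sense counts in mouse 1 and 172474 of 1863876 in mouse 2. These are 132003 CPM in mouse 1 (95% Clopper-Pearson interval 131525 to 132481) and 92535 CPM in mouse 2 (92119 to 92952), and the mean was 112269 ± 27908 CPM (SD, n = 2). The interval of each mouse is narrow because it covers counting error only, and the difference between the mice was many times wider than either interval. As a share of all sense counts, Mir139 held 13.2% in mouse 1 and 9.25% in mouse 2. Against all mapped reads, those at several places included, it held 5.30% in mouse 1 and 3.80% in mouse 2. The median detected gene stood at 326 CPM, so the mean of Mir139 was 345-fold higher.

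All of these reads lay on the strand of the hairpin. The opposite-strand count of Mir139 was 0 in both mice, which allows up to 3 counts, equal to 1.55 CPM in mouse 1 and in mouse 2 to 1.61 CPM. Its unstranded count was equal to its sense count in each mouse. This was not so for every abundant gene: Mirlet7e had 59351 sense counts in mouse 1 and 44824 in mouse 2 but 0 unstranded counts in both, and Mir126a had 21766 and 41713 sense counts but 1 and 0 unstranded counts. Their reads may be among those that the unstranded column lists as ambiguous. An opposite-strand count above 0 in either mouse was seen for 19 of the 304 detected genes, 1 of them among the 10 highest.

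Mir139 ranked first in each mouse, but by different margins. In mouse 1 the next gene was Mirlet7b at 89787 CPM, so that Mir139 was 1.47-fold above it. In mouse 2 the next gene was Mirlet7g at 78227 CPM, and Mir139 was 1.18-fold above it. The lower Mir139 value, that of mouse 2, exceeded the highest value of any other gene in either mouse by 2748 CPM.

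**Figure D1:**
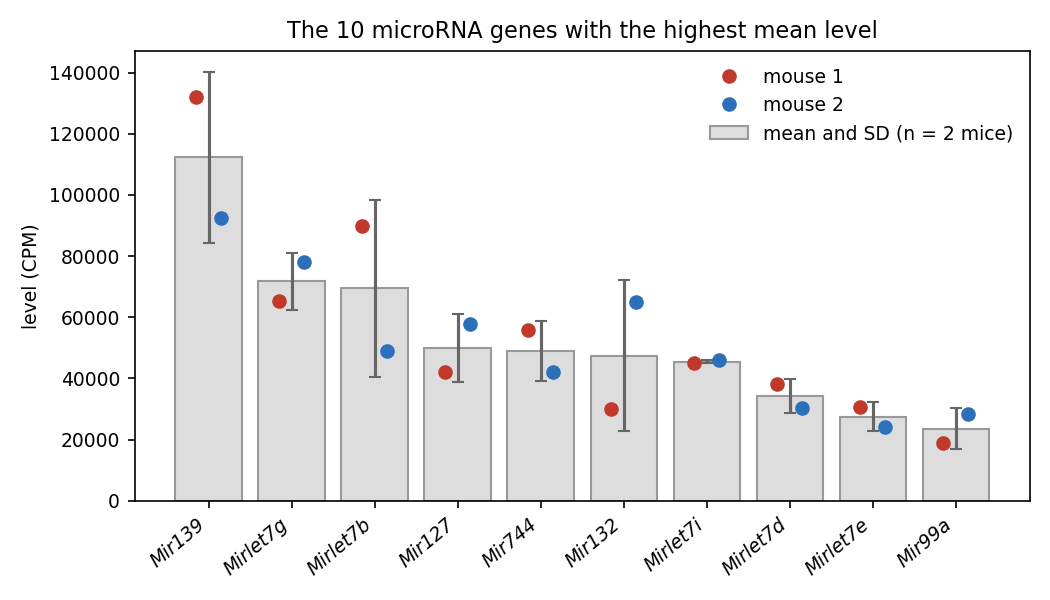
Level of the 10 microRNA genes with the highest mean, in CPM. Red points are mouse 1, blue points mouse 2, bars the mean and whiskers the SD of 2 mice. Mir139 stands at 132003 and 92535 CPM, above both points of every other gene.

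Among the 9 genes that follow Mir139, let-7 genes recur, and most neighbours in the order overlapped between their mice. Mirlet7g stood at 71717 ± 9206 CPM, 63.9% of the Mir139 mean, and Mirlet7b at 69419 ± 28805 CPM (n = 2 for both). The let-7 family is known for high levels in differentiated tissue. Of the 9 pairs of neighbours in this order, 2 did not overlap between their mice, Mir139 with Mirlet7g and Mirlet7i with Mirlet7d, and 7 overlapped. With 2 mice in 1 group no test of these gaps was made. The order and the choice of Mir139 come from these same values, so its gap is a description and does not show that it stands apart. The imprinted Mir127 stood at 44.6% of the Mir139 mean, Mir744, which lies in the kinase gene Map2k4, at 43.6%, and the activity-induced Mir132 at 42.2%. Mirlet7i (40.5%), Mirlet7d (30.5%) and Mirlet7e (24.4%) followed, and Mir99a was last of the 10 at 23590 ± 6816 CPM.

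Counted by seed rather than by gene, the order was different. The seed of let-7g-5p and let-7b-5p printed above belonged to 13 genes, which together held 27.7% of sense counts in mouse 1 and 23.8% in mouse 2. The seed of miR-139-5p had Mir139 alone, with 13.2% in mouse 1 and 9.25% in mouse 2. Of the 10 highest genes, 3 (Mir139, Mir127 and Mir744) carried on both arms a seed that no other gene in the RefSeq table has. These shares put all reads of a hairpin to either arm, since the tables do not separate arms. Reads at several places are in none of them. Some let-7 microRNAs come from several gene copies, so the let-7 share may be too low.

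The position of Mir139 in its host was the same in all annotated transcripts in 1 respect and varied in another. Pde2a covers 91137 bases of chromosome 7 (101421691 to 101512827, plus strand) and has 12 annotated transcripts, 10 of which span Mir139. The hairpin lies in an intron of every one of them, and overlaps no annotated exon. The first exon downstream of it begins after 5927 bases in all. Upstream, the nearest exon ends 13834 bases away in some transcripts and up to 23907 bases away in others, and the intron is accordingly 19829 to 29902 bases long. It is the second intron of Pde2a-202, Pde2a-201 and Pde2a-212, which code for protein, and of Pde2a-204, which starts at another first exon. The starts of the spanning Pde2a transcripts lie 14432 to 53685 bases upstream of the hairpin. A longer annotated gene, Gm45837 (101410886 to 101512819), overlaps Pde2a on the same strand and holds Mir139 in its intron 3. Messenger RNA of Pde2a was not measured in these libraries, and whether Mir139 follows it was not tested.

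**Figure D2:**
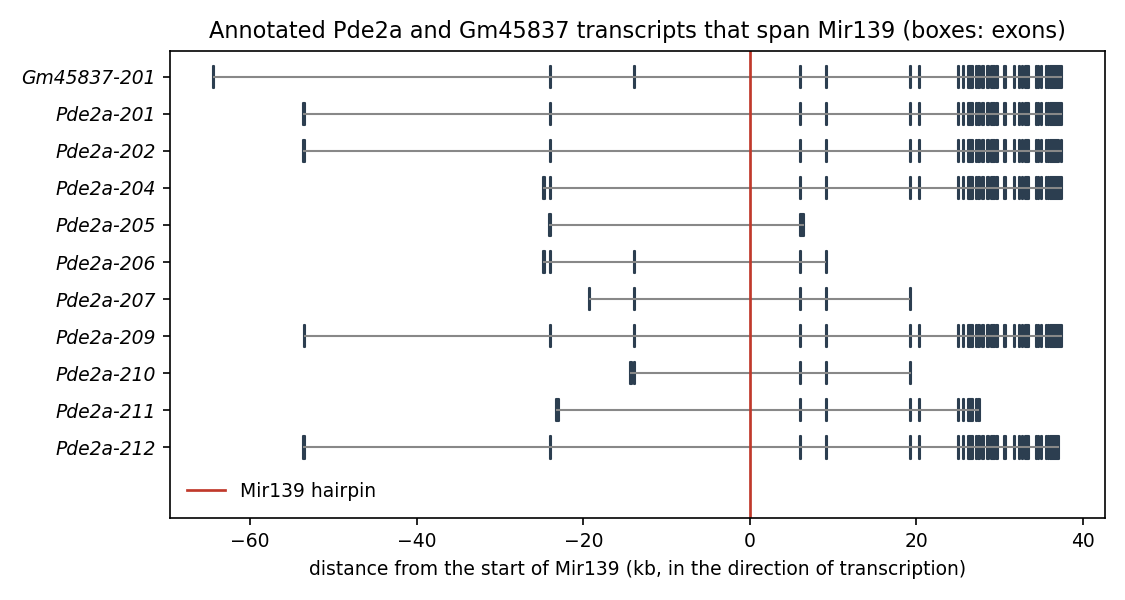
Annotated M21 transcripts of Pde2a and Gm45837 that span Mir139, drawn to scale by distance from the start of Mir139 in kb, in the direction of transcription. Boxes are exons (the shortest are widened to be visible), grey lines introns, and the red line is the hairpin, which lies 5927 bases before the next exon in every transcript drawn.

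Mir139 is 1 of 724 listed microRNA genes that lie in an intron of a protein-coding gene on the same strand, of which 111 were detected. That class held 44.4% of sense counts in mouse 1 and 38.6% in mouse 2. Mir139 supplied 29.7% of the counts of its class in mouse 1 and 24.0% in mouse 2. The class as a whole was not marked by high levels. Its detected genes had a median of 226 CPM, and those that overlap an exon a median of 418 CPM, those with no host 373 CPM and those in introns of other hosts 348 CPM.

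Of 7 microRNA genes hosted in a gene whose symbol begins with Pde, Adcy, Prka, Prkg or Gucy, 2 were detected, Mir139 and Mir582. Another 3, Mir7225 in Pde4dip, Gm44413 in Pde1c and Mir1904 in Pde4d, had no count in either mouse. Over all 2202 listed genes, 13.8% were detected and 67.2% had no count, so these counts do not set the group apart. Mir582, in an intron of the phosphodiesterase gene Pde4d, had 35 counts in mouse 1 and 74 in mouse 2, or 18.1 CPM and 39.7 CPM. Its mean was 0.0258% of that of Mir139. Mir7010 in Gucy1a1 had 4 counts in mouse 1 and Mir7672 in Pde12 had 2 in mouse 1, and both had 0 in mouse 2. The group was formed by symbol alone, and Pde12 and Pde4dip are not known as cyclic nucleotide phosphodiesterases.

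Within 5 Mb of Mir139 on chromosome 7 the tables list 7 other microRNA genes, and 2 of them had counts. Mir326 (99552269 to 99552363), in an intron of the beta-arrestin gene Arrb1, lies 1.92 Mb from Mir139 toward the start of the chromosome and had 965 CPM in mouse 1 and 675 CPM in mouse 2. Mir3102 (100882306 to 100882409), which overlaps an exon of Arhgef17 on the other strand from Mir139, had 759 CPM in mouse 1 and 799 CPM in mouse 2. The other 5, Gm22655, Gm25171, Gm23550, Gm25774 and Gm26506, had 0 counts in both mice. Over all 2202 listed genes 67.2% had no count in either mouse, so the 5 do not set this stretch apart. Each of these 5 has 20 bases in a row in common with some other hairpin, and reads at several places would be missing from it. Mir139, which was chosen as the highest gene, stood 137-fold above the next gene of this stretch. No other annotated microRNA gene lies within 0.406 Mb of Mir139.

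Mir139 belongs to a list of 23 microRNA genes known to be enriched in neurons, in which the way it was chosen makes it the highest. Of the 23, 19 were detected (82.6%, against 13.8% of all listed genes), and the list held 26.5% of sense counts in mouse 1 and 27.6% in mouse 2. Mir139 made up 49.7% of the list's counts in mouse 1 and 33.5% in mouse 2, a mean of 41.6% ± 11.5 (n = 2). Without it the list held 13.3% of sense counts in mouse 1 and 18.4% in mouse 2. The next members were Mir127, Mir132, Mir128-1 (16730 ± 633 CPM), Mir433 (16302 ± 3311 CPM), Mir137 (7869 ± 2971 CPM) and Mir383 (5176 ± 1067 CPM). Below these came Mir138-1, Mir128-2, Mir138-2, Mir129-2, Mir212, Mir129-1, Mir153, Mir488 and Mir218-2, from 4386 CPM for Mir138-1 down to 109 CPM for Mir218-2. The 4 members below the detection threshold were Mir124a-1, Mir124a-2, Mir124a-3 and Mir9-2, with 6 counts or fewer in each mouse. The Mir124a and Mir9 families each come from several copies, and each of their hairpins has 20 bases in a row that recur in another. Detected members of the list have such a run too, among them Mir128-1 at 16730 CPM and Mir138-1 at 4386 CPM. The run therefore does not set the 4 apart, and why they were so low was not tested.

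**Figure D3:**
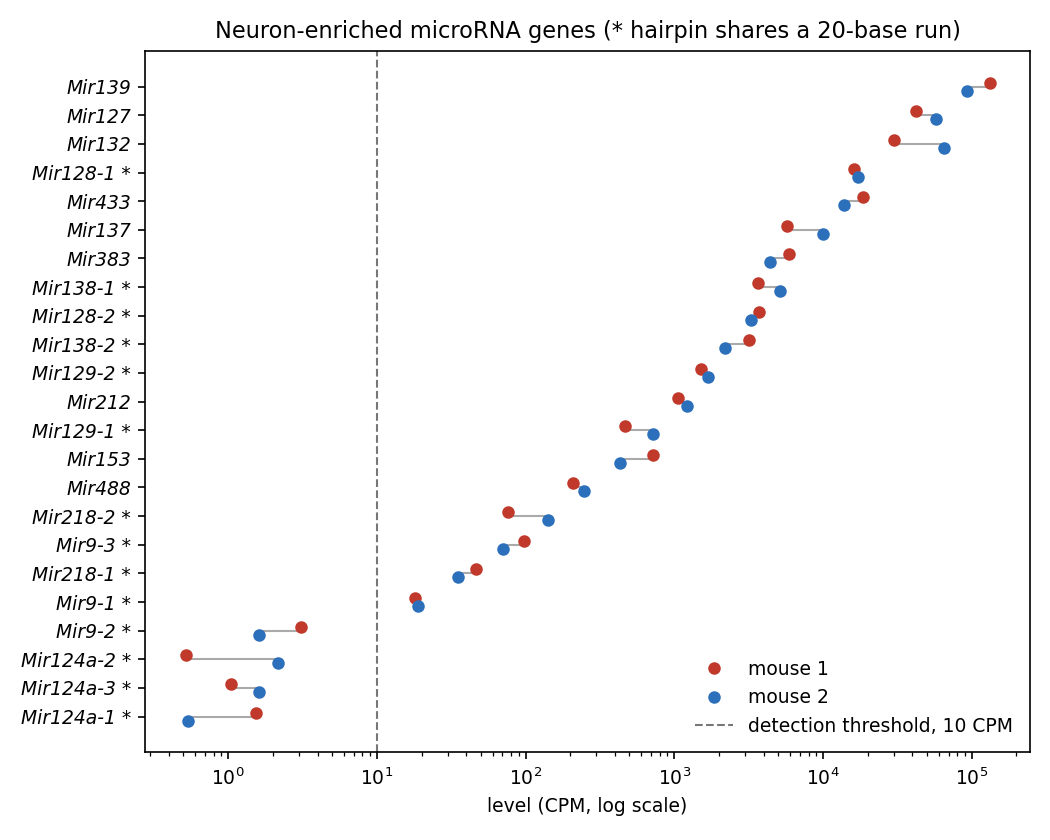
Level in CPM (log scale) of the 23 genes of the neuron-enriched list, ordered by mean. Red points are mouse 1, blue points mouse 2, the dashed line is 10 CPM and an asterisk marks a hairpin that shares a 20-base run with another. Mir139 is the highest at 132003 and 92535 CPM, and the 4 genes below the dashed line are among those marked.

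Markers of other cells were read as well. The endothelial and mural list (3 of 4 detected, Mir126b at 0) held 1.59% of sense counts in mouse 1 and 3.18% in mouse 2. Its leading gene, the endothelial Mir126a, stood at 16828 ± 7851 CPM, level with Mir128-1 of the neuron-enriched list, and Mir143 at 6755 ± 3330 CPM and Mir145a at 272 ± 117 CPM. The oligodendrocyte list (2 of 3 detected) held 0.276% in mouse 1 and 0.513% in mouse 2, with Mir338 at 1972 ± 906 CPM and Mir219a-2 at 1961 ± 771 CPM. The microglia and leukocyte list (3 of 4), led by Mir150 at 1397 ± 189 CPM, held 0.164% and 0.147%. The erythroid list (3 of 3) held 0.0742% in mouse 1 and 0.0153% in mouse 2. Of genes known from other tissues, Mir204 of the choroid plexus had 489 CPM in mouse 1, against 495 CPM in mouse 2. Mir375 of pancreas and pituitary had 251 CPM in mouse 1, against 170 CPM in mouse 2, and the liver gene Mir122 had 45.6 CPM in mouse 1, against 40.2 CPM in mouse 2. Of 9 heart and skeletal muscle genes, 2 were detected and 4, Mir1a-1, Mir133b, Mir133a-2 and Mir133a-1, were at 0, but these 4 hairpins too have 20 bases in a row that recur elsewhere, so their reads may be among those given to no gene. Which cells of the cortex hold the Mir139 reads cannot be read from bulk tissue, and fewer cells of a type cannot be told apart from less RNA per cell.

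Mir139 was higher in mouse 1 than in mouse 2. With TMM library sizes the ratio of mouse 1 over mouse 2 was 1.47-fold, a log2 ratio of 0.56 (95% counting interval 0.552 to 0.569). It passed a two-sided exact binomial test with Benjamini-Hochberg adjustment over the 324 genes with a mean of at least 10 CPM, at an adjusted p threshold of 0.05, but lay under 2-fold. The same test passed 74.7% of the 324 genes, and 36.7% of the 324 passed it with the higher value in mouse 1. It sets 2 libraries against counting error and says nothing of a condition. Past the test and 2-fold were 63 genes, 19.4% of those tested, of which 17 (5.25%) were higher in mouse 1 and 46 (14.2%) in mouse 2. The log2 ratio of 152 genes (46.9%) was larger in size than that of Mir139, and the median size was 0.526. The common biological coefficient of variation between the mice was 0.399 by edgeR. The difference in Mir139 was thus of the size that a middling gene showed between these libraries, and each mouse had 1 library, so animal and library cannot be told apart.

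**Figure D4:**
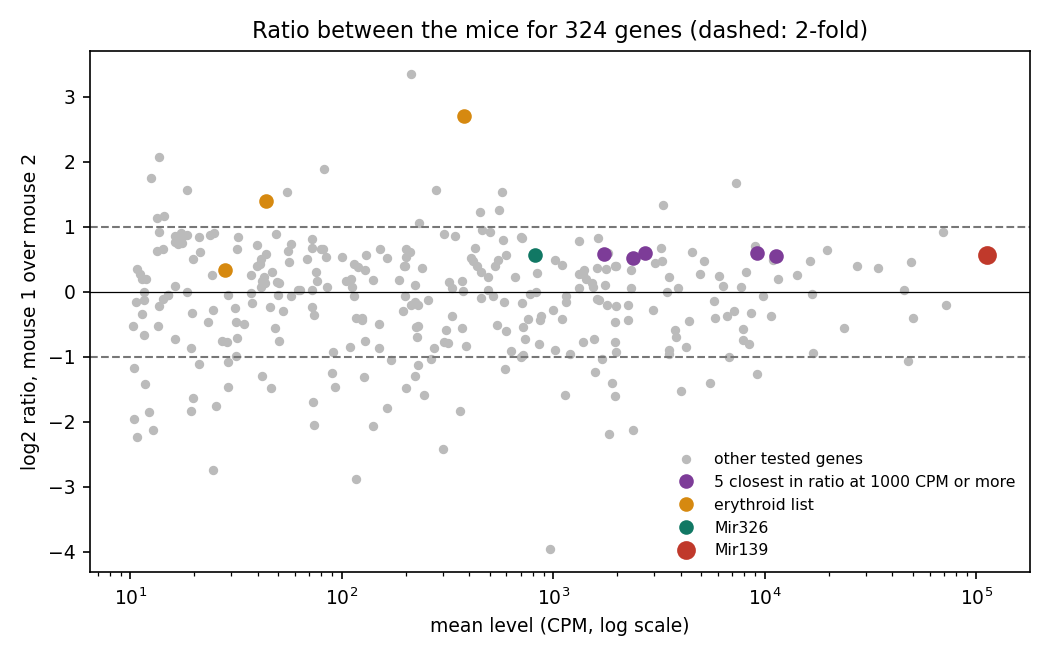
Log2 ratio of mouse 1 over mouse 2 against mean level in CPM (log scale) for the 324 genes with a mean of at least 10 CPM. Mir139 (red) lies at 0.56 and at the right edge, inside the dashed lines at 2-fold; purple points are the 5 genes closest to it in ratio, green is Mir326 and orange the 3 erythroid genes.

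Some lists were higher in mouse 1, as Mir139 was, and others were lower. Over all 324 tested genes the median log2 ratio was 0.00, so about as many lay above 0 as below. Past the test and 2-fold were 5.25% of the 324 with the higher value in mouse 1 and 14.2% in mouse 2. With 2 mice, a shared direction does not show that a gene varies with Mir139. All 3 erythroid genes had a higher value in mouse 1, with a median log2 ratio of 1.40, and 2 of them, Mir451a at 6.51-fold and Mir144 at 2.65-fold, passed the test and 2-fold. All 4 tested heart and skeletal muscle genes were also higher in mouse 1, with a median log2 ratio of 1.00. Of these, 2 passed, Mir208a at 2.23-fold and Mir208b at 3.36-fold, on 38 counts or fewer in either mouse. Neither is called detected, as mouse 2 had 9.12 CPM of Mir208a and 5.90 CPM of Mir208b. With those values they could enter the test only by being higher in mouse 1, where they had 19.7 and 19.2 CPM. The filter on the mean thus partly set their direction. The detected Mir499 and Mir206 were 1.79-fold and 1.57-fold higher in mouse 1. None of the 2 tested oligodendrocyte genes and none of the 3 tested endothelial and mural genes had a higher value in mouse 1. Their median log2 ratios were −0.85 and −0.94. Mir143 passed the test and 2-fold, but at 2.00-fold it lay on the threshold. Of the 3 tested microglia and leukocyte genes 1 had a ratio above 0, Mir150 (0.33), which leads that list, and Mir142 was 2.75-fold higher in mouse 2. In the neuron-enriched list 8 of 19 tested genes had a ratio above 0 and the median was −0.03. Of these, 1 passed the test and 2-fold, Mir132, which was higher in mouse 2. The part of red cells, muscle, glia, leukocytes or vessels in the Mir139 difference was not tested.

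Of the 9 genes that follow Mir139, Mirlet7b, Mir744, Mirlet7e, Mirlet7d and Mirlet7i had a positive ratio, from 0.92 for Mirlet7b to 0.03 for Mirlet7i. Mir132 (−1.07), Mir99a (−0.55), Mir127 (−0.41) and Mirlet7g (−0.21) had a negative ratio. Among the other 101 genes with a mean of at least 1000 CPM, the 5 with the ratio closest to that of Mir139 were Mir125a (0.55), Mir671 (0.58), Mir138-2 (0.60), Mir676 (0.52) and Mir652 (0.60). Likeness here is the difference of a log2 ratio over 2 mice, so any gene with a like ratio is alike. Mir326, the intronic neighbour 1.92 Mb away on the same strand, had a ratio of 0.56 as well, and Mir3102 had −0.03.

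As the seed is what a microRNA reads by, the complement of each Mir139 seed was looked up in 3′ untranslated regions, 1 main M21 transcript for each of 20696 protein-coding genes. The complement of the miR-139-5p seed, actgtag, on the sense strand, was present in 2096 of them (10.1%), and the longer actgtaga in 709 (3.43%). The complement of the miR-139-3p seed, cgtctcc, was present in 595 (2.87%). For scale, the complement of the let-7 seed, ctacctc, was present in 1692 (8.18%). These are counts of letters, with no measure of binding or of messenger levels.

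The host and a list of 10 genes named in studies of miR-139-5p were looked up singly. The 3′ untranslated region of Pde2a (953 bases, Pde2a-202) held the complement of neither seed. Of the 10 other genes, 8 held that of the 5p seed and none that of the 3p seed, against 10.1% and 2.87% of all 3′ untranslated regions. These genes come from studies of miR-139-5p targets, and with the host their 3′ untranslated regions had a median of 2401 bases, against 850 bases over all, so nothing is read from the count. Igf1r, the receptor of insulin-like growth factor, held 2, Cxcr4, a chemokine receptor, 2, Bcl2, which restrains apoptosis, 2, the repressor Zeb2 3, and the immediate-early gene Fos and the receptor gene Notch1 1 each. Zeb1 had 2, of which 1 was the longer match and is not shown here. Tcf4 had 1, and Rock2 and Rap1b had none. The first windows of 30 bases that hold the longer match in Igf1r, Cxcr4 and Bcl2 are shown because they are what the miR-139-5p seed printed above would pair with, and the capitals mark the match. In Cxcr4 the 2 matches adjoin.
Igf1r, chr7:68228986-68229015, plus strand: ctgttttaatcACTGTAGAaaagcccctgt
Cxcr4, chr1:128588558-128588587, minus strand: ctgtgtgtaggACTGTAGAACTGTAGAgga
Bcl2, chr1:106542474-106542503, minus strand: cttaagccctgACTGTAGAtaatcatatat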

How the data were processed

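Per the submitters' README notes, reads were assigned on mm10 to GENCODE M21. The authors deposited 3 columns of whole-number counts per gene for each library, with no header. They were read as unstranded, sense and opposite-strand counts from their values, and the sense counts were used. The aligner, counter and trimming are not given in the sources used here. Excluded from library sizes were 4 lines that name no gene; the reads at several places among them were 50.9% of mapped reads in mouse 1 and 51.2% in mouse 2. Reads that differ from mm10 on CAST alleles may be missing, and molecular identifiers are not named, so intervals and floors cover counting error only. All 2202 gene IDs matched M21, which gave symbols, hosts and hairpins.

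CPM was computed over sense totals. edgeR 4.0.16 (R 4.3.3) gave TMM factors (0.983 for mouse 1, 1.02 for mouse 2) and the coefficient of variation with an intercept alone. scipy 1.17.1 gave exact tests, ViennaRNA 2.7.2 folds, and DESeq2 1.42.0 an alternative scaling. The exact tests were tried on simulated counts with counting error alone and no spread between mice. Main transcripts were the best APPRIS class, then the longest. Genes named were Mir139, the next 9, the 5 closest in ratio, all within 5 Mb, cyclic nucleotide hosts, and list members at 100 CPM or more or at 0; Mir9-2, the Mir124a genes, Mir122, Mir142, Mir144, Mir208a and Mir208b were named after their values were seen. The gene and the lists were chosen with earlier results of these data known.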

Additional observations from a re-analysis of the deposited data

How the results depend on the processing

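The rank of Mir139 was 1 under all 7 alternatives run. They were the unstranded column, 3 other denominators, hairpins that share no run alone, and each mouse alone. Since Mir139 ranked first in each mouse, only the unstranded column could have changed its rank. The level of Mir139 stayed within 1 SD in 5 of 7, from 92535 CPM without replicate 1 to 132003 CPM without replicate 2. Leaving out 1 of 2 mice cannot pass 1 SD, and leaving out hairpins that share a run did not alter the CPM. Of all reads Mir139 was 31779 CPM and of mapped reads 45460 CPM, as those totals are larger by construction. Its log2 ratio stayed above 0 and past the exact test under all 7 alternatives, from 0.38 with the linear trend of hairpin GC removed to 0.58 with library totals that leave out Mir139. The 63 genes past the test and 2-fold were 60 to 71 under 5 alternatives. The share of Mir139 in the counts of the neuron-enriched list was 33.5% without replicate 1 and 49.7% without replicate 2. No paired analysis was possible because the 2 mice form 1 group. Depth is no limit for Mir139; 2 libraries and the reads at several places are.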

Other observations

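Across the 324 tested genes the log2 ratio of mouse 1 over mouse 2 was higher by 0.23 for each 10 points of hairpin GC content, by a linear fit given as a description. At the GC content of Mir139, 58.8%, against a mean of 51.0%, that line lies 0.18 above its value at the mean, and 66 tested genes had a higher GC content.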
